A study of Homo sapiens with 12 samples.

Results

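Untreated CAL27 and HSC3 cells were compared, to describe how these lines differ before MUC1 is silenced. The comparison used the 6 vehicle libraries of the 12 in the series, 3 from each line, and these libraries were identified by the cell line and treatment in their labels. CAL27 and HSC3 are established HPV-negative cell lines from squamous cell carcinomas of the tongue. The control group was CAL27/tet-MUC1shRNA cells and the other was HSC3/tet-MUC1shRNA cells, each given 0.1% DMSO for 7 days. Both groups therefore carried the pLKO-tet-puro vector with an inducible MUC1 shRNA and had been selected in puromycin, and neither received doxycycline (DOX). The remaining 6 libraries came from the same cells given 500 ng/ml DOX for 7 days, and they are used at the end as a second measurement of the line difference. Per the labels, CAL27 cells were grown in DMEM and HSC3 cells in MEM, both with serum, so the cell line and the medium cannot be told apart in any difference below. Each line stands for 1 tumour, and the 3 libraries of a group were replicate cultures, so that the p-values measure the spread among cultures and not among tumours.

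Squamous epithelium is built on a basal layer that expresses KRT5 and KRT14 under the transcription factor p63, is anchored to laminin by integrins and hemidesmosomes, and is held together by desmosomes. Cells that leave this layer switch to other keratins and to proteins of the cornified envelope. MUC1 is a transmembrane mucin of the apical surface whose C-terminal subunit, MUC1-C, signals in carcinoma cells. Interferons act through JAK kinases on STAT and IRF transcription factors, which induce a large set of interferon-stimulated genes (ISGs), and many carcinoma lines keep part of this program on without added interferon.

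Library totals were 126328662, 97477659 and 108406101 counts for CAL27 cells and 125052179, 89730914 and 130393198 for HSC3 cells. Levels are given as CPM, which scales counts to a common library size, after TMM normalisation over the 6 libraries, in the order of replicates 1, 2 and 3, and fold changes are HSC3 over CAL27. The libraries of the lines differed beyond the totals. The estimated number of counts that stand for 1 original molecule, from the share of genes without a count among those expected at 8 to 16 counts from the other libraries of the group, was 3.07, 2.69 and 2.42 in CAL27 libraries and 6.94, 4.19 and 7.45 in HSC3 libraries. Odd numbers made up 32.9%, 34.03% and 35.7% of counts from 1 to 19 in CAL27 libraries and 23.1%, 24.9% and 22.1% in HSC3 libraries, so even counts prevailed in both. In all 24685, 24274 and 24648 genes had a count in the CAL27 libraries and 20938, 21243 and 20661 in the HSC3 libraries. A low count is less precise where 1 molecule gives more counts, and the part of this difference in the low genes cannot be told apart from the cell line. Counts on mitochondrially encoded genes made up 7.55%, 7.82% and 6.39% of CAL27 totals and 5.98%, 6.51% and 5.94% of HSC3 totals. Counts on a ribosomal RNA were 897, 1475 and 1584 in CAL27 libraries and 19, 14 and 19 in HSC3 libraries, and the reason was not tested. The first principal component held 98.3% of the variance and separated the lines.

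A gene was called higher in a line when its Benjamini-Hochberg adjusted p in edgeR's quasi-likelihood test was under 0.05 and its fold change was above 2. Of 19410 genes tested, 2755 (14.2%) were higher in HSC3 cells and 3984 (20.5%) were higher in CAL27 cells. These shares are the background against which the counts of each gene list are read. With factors from library totals the split was 1959 to 5125, with upper-quartile factors it was 2208 to 4661, and over genes with at least 1 CPM in both lines it was 1511 to 1546. The libraries of the lines did not overlap at all for 76.7% of the genes tested, so that a lack of overlap alone marks nothing out. Over all genes tested the median log2 fold change was -0.10 with TMM factors, and upper-quartile factors and library totals moved it to -0.28 and -0.37. The gene lists were chosen with earlier results of these data known, and their counts describe them and are not tests of a pathway. The count filter keeps a gene expressed in a single line. A member silent in the other line thus enters a list through the line where it is high. A list's median log2 fold change is given over its members with at least 1 CPM in both lines, for which all genes gave 0.10 over 12193 genes, and it leaves out members that are silent in either line. Each of these medians fell by 0.18 with upper-quartile factors and by 0.27 with library totals, that of all genes included.

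SERPINB2, VIM and CCND2 led the 10 genes with the largest differences of mean log2(CPM + 1) toward HSC3 cells. SERPINB2, a serpin that inhibits urokinase, was 0.248, 0.223 and 0.225 CPM in CAL27 cells and 348, 339 and 384 CPM in HSC3 cells. VIM, the intermediate filament of mesenchymal cells, was 0.211, 0.326 and 0.25 CPM in CAL27 cells and 355, 359 and 367 CPM in HSC3 cells. CCND2, a D-type cyclin, was 14.4, 12.7 and 13.7 CPM against 2773, 2728 and 2942 CPM. The ratios of means were 1541, 1374 and 207. Only called genes whose libraries did not overlap between the lines could enter these 10, so their separation was a condition of choice. The others higher in HSC3 cells were PXDN (peroxidasin, which cross-links collagen IV, 0.928 against 362 CPM), KCNMA1 (a potassium channel, 0.292 against 229.8), KRT19, AREG, IL24, the long noncoding RNA AFAP1-AS1 (1.68 against 218, with 41.7% of its exon length opposite another gene) and SLC20A2. SLC20A2, a phosphate transporter, had no count in any CAL27 library and 80.6, 86.9 and 89.7 CPM in HSC3 cells, which is at least 3441-fold higher against a floor of 3 counts per library. Folds against that floor, here and below, cover counting error only and are not limits on molecules. By the estimate above, 1 molecule stood for 2.42 to 3.07 counts in CAL27 libraries and 4.19 to 7.45 in HSC3 libraries.

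In the other direction, MMP13, a collagenase, was 1159, 1034 and 1159 CPM in CAL27 cells and 1.24, 1.72 and 1.78 CPM in HSC3 cells. CCL2, a monocyte chemokine, was 235, 217 and 243 CPM against 0.0875, 0.0736 and 0.101 CPM. EDIL3, a secreted integrin ligand, was 216, 206 and 222 CPM against 0.0525, 0 and 0 CPM. The HSC3 values of CCL2 and EDIL3 rest on a few counts. COL4A2, a collagen IV chain, averaged 132 CPM in CAL27 cells and 0.0251 CPM in HSC3 cells, and LY6D, a surface protein of squamous cells, averaged 92.99 and 0.0783 CPM. OLFM4 (112, 105 and 115 CPM in CAL27 cells) and PLXDC2 (85.5, 84.7 and 86.7 CPM) had no count in any HSC3 library, which is at least 3743-fold and 2904-fold lower against the same floor. NOTCH3, CX3CL1 and MUC16, described below, completed the 10.

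Markers of squamous epithelium were present at high levels in both lines, as the label of the cells says. The 12 markers checked were all above 1 CPM in both lines, and they summed to 9504, 9155 and 9297 CPM in CAL27 cells and 10839.6, 11625 and 10564 CPM in HSC3 cells. Markers of other cell types were low or absent, with 20 of 49 passing the count filter, 8 of them higher in CAL27 cells, against 4 in HSC3 cells (10 and 2 with library totals). The 6 fibroblast markers summed to 12.6, 13.5 and 12.8 CPM in CAL27 cells and 4.88, 4.92 and 4.25 CPM in HSC3 cells, most of it COL1A1 (8.46 and 4.63 CPM), while COL3A1 had no count in either line. The 4 leukocyte markers summed to 5.21, 4.72 and 5.16 CPM in CAL27 cells and 1.15, 1.01 and 1.13 CPM in HSC3 cells, most of it CD14 (4.73 and 1.04 CPM). CD14 and CD3E (0.253 CPM in CAL27 cells, no count in HSC3 cells) were higher in CAL27 cells, PTPRC was at 0.043 and 0.0584 CPM, and MS4A1 had no count. The 3 endothelial markers summed to 15.4, 15.04 and 15.2 CPM in CAL27 cells and 0.525, 0.270 and 0.389 CPM in HSC3 cells. That sum was nearly all CDH5, the cadherin of endothelial cells, at 14.9, 14.4 and 14.7 CPM in CAL27 cells, while the endothelial marker PECAM1 was at 0.0367 CPM there. The 7 melanocyte or neural crest markers went the other way, with sums of 8.12 CPM in CAL27 cells and 16.7 CPM in HSC3 cells. Of 3 tested, MITF and MLANA were higher in HSC3 cells, and both lost their calls with library totals (0.95 and 0.80). Each group was cultured from an established cell line, and bulk libraries do not show whether all or a few of its cells carry these transcripts. The part of these markers in the results below was not tested.

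MUC1 was expressed in CAL27 cells and was low in HSC3 cells. The MUC1 gene (chr1:155185824-155192916, minus strand, GRCh38) had 58.7, 53.6 and 54.8 CPM in CAL27 libraries and 1.67, 1.99 and 1.66 CPM in HSC3 libraries. No library overlapped, and the means differed 31.4-fold (log2 fold change -4.99 ± 0.082 SE, adjusted p = 4.57e-14). Of 19 mucin genes, 9 passed the count filter, of which 7, MUC1 among them, were higher in CAL27 cells and MUC2 was higher in HSC3 cells. Only 2 of the 9 had at least 1 CPM in both lines, and both were higher in CAL27 cells. MUC16, the transmembrane mucin that carries the CA125 antigen, was 177, 238 and 195 CPM in CAL27 cells and 1.52, 1.96 and 1.83 CPM in HSC3 cells. MUC4, which binds ERBB2, was 4.79, 5.31 and 4.77 CPM against 0.035, 0 and 0 CPM, with counts in a single HSC3 library. MUC2, a gel-forming mucin, was 0.248, 0.223 and 0.166 CPM against 0.49, 1.03 and 0.372 CPM, and its adjusted p no longer passed when HSC3 replicate 2 was left out.

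**Figure D1:**
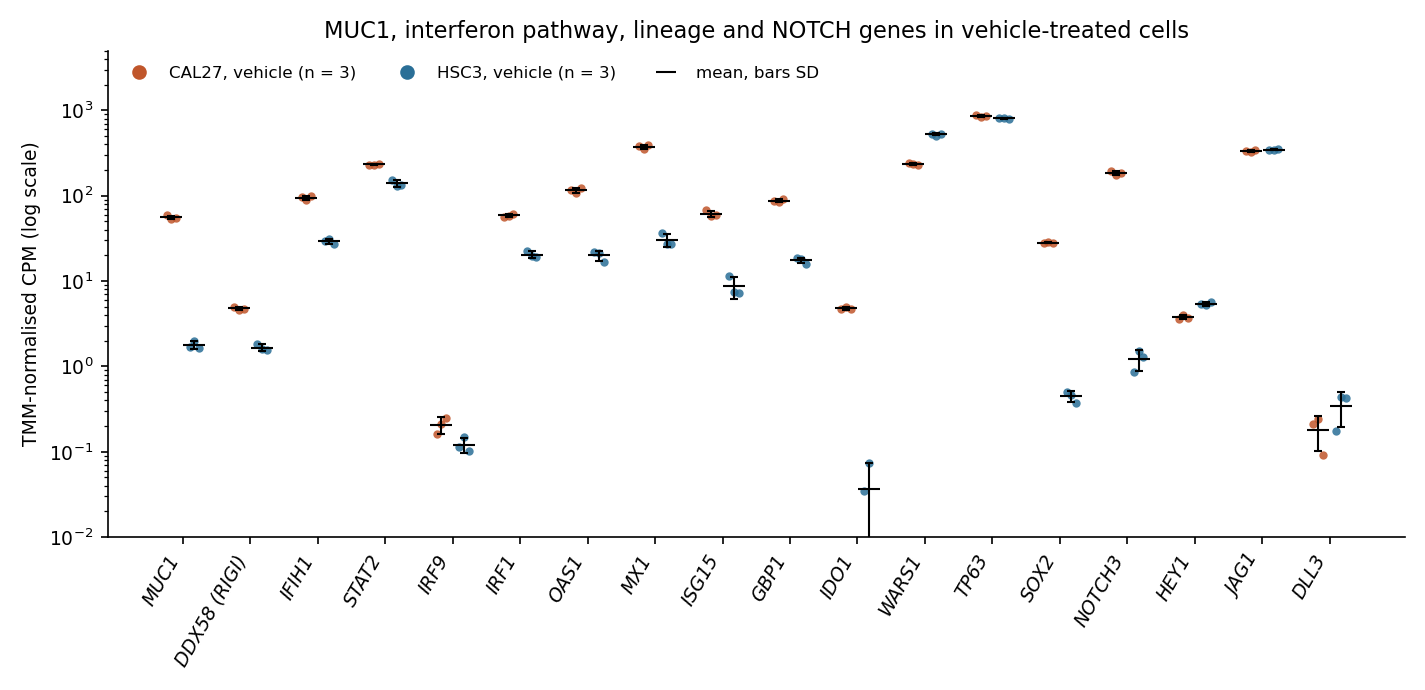
Levels of MUC1 and of the interferon, lineage and NOTCH genes assayed by name in the study, in vehicle-treated CAL27 (orange) and HSC3 (blue) cells, as TMM-normalised CPM on a log axis; each point is a library and bars are the mean and SD (n = 3). A library at 0 is not drawn (1 HSC3 library for IDO1). MUC1, SOX2 and NOTCH3 lie far lower in HSC3 cells, most interferon genes lie lower in HSC3 cells, and TP63 and JAG1 lie at about the same height.

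The squamous master regulator TP63 was at nearly the same level in both lines, while many of its companions were not. TP63 was 881, 828 and 861 CPM in CAL27 cells and 815, 820.1 and 803 CPM in HSC3 cells, a log2 fold change of -0.08 ± 0.036 (adjusted p = 0.0739). SOX2, which is amplified in many squamous cancers, was 27.9, 28.6 and 27.7 CPM in CAL27 cells and 0.507, 0.466 and 0.372 CPM in HSC3 cells, a ratio of 62.5. These SOX2 libraries did not overlap. Of 35 squamous lineage transcription factors, each tested, 8 were higher in HSC3 cells and 10 in CAL27 cells, with a median of 0.19 over 24 members that was -0.085 with library totals. ELF3, an ETS factor of differentiating epithelium (51.6 against 2.69 CPM), and ZNF750, which drives terminal epidermal differentiation (12.1 against 0.349 CPM), were higher in CAL27 cells. BNC1, a zinc finger protein of basal keratinocytes (46.9 against 228 CPM), FOXE1 (6.03 against 35.5) and MAF (0.958 against 6.88) were higher in HSC3 cells. GRHL2 and KLF4 were not called, at 128 against 106 and 30.1 against 40.5 CPM.

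The basal keratin pair was abundant in both lines and more keratins of the layers above it were higher in CAL27 than in HSC3 cells. KRT5 was 3811, 3694 and 3681 CPM in CAL27 cells and 2837, 3119 and 2784 CPM in HSC3 cells and was not called. KRT14 was 622, 590.0 and 610.2 CPM against 1172, 1413 and 1168 CPM, a fold change just past the threshold (1.04 ± 0.064 on the log2 scale) that fell below it with library totals (0.77), with upper-quartile factors (0.86), with counts divided by counts per molecule (0.9994), over genes with at least 1 CPM in both lines (0.92) and without HSC3 replicate 2 (0.94). KRT15, a keratin of basal and follicle progenitor cells, was 856, 885 and 913 CPM in CAL27 cells and 58.1, 76.96 and 63.03 CPM in HSC3 cells. Of 8 suprabasal keratins tested, 6 were higher in CAL27 cells and none in HSC3 cells. Only 2 of these 8 had at least 1 CPM in both lines, and 1 of the 2 was higher in CAL27 cells. The most abundant suprabasal keratin in both lines was KRT80, at 80.98 and 30.2 CPM, and the suprabasal keratins summed to 135 and 53.8 CPM. KRT13, the keratin of the oral suprabasal layers, was 26.1, 24.4 and 24.8 CPM in CAL27 cells and 0.569, 0.221 and 0.161 CPM in HSC3 cells, and its partner KRT4 was 13.9, 10.1 and 13.5 CPM against 0.0525, 0.0859 and 0.00846 CPM. Neither gene overlapped between the lines. Of 4 keratins of simple epithelium tested, KRT18 and KRT19 were higher in HSC3 cells and none in CAL27 cells. KRT19 was 1.29, 1.41 and 1.08 CPM in CAL27 cells and 202, 235 and 193 CPM in HSC3 cells, a ratio of 167, and KRT18 was 80.9, 86.1 and 81.2 CPM against 212, 208 and 199 CPM. KRT8, the partner of KRT18, was 211 and 316 CPM and was not called. Keratin genes with near-identical copies, such as KRT6A and KRT16, may share reads and are left out here.

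Genes of the cornified envelope and of the epidermal barrier were divided between the lines. Of 51 epidermal differentiation genes tested, 23 were higher in CAL27 cells, against 9 in HSC3 cells, with a median of -0.37 over 26 members. Over genes with at least 1 CPM in both lines these counts were 7 and 4, and for the cornified envelope alone 8 and 2 became 1 and 2. SLPI, a secreted antiprotease, was 82.3, 78.5 and 77.5 CPM in CAL27 cells and 2.3, 2.72 and 2.44 CPM in HSC3 cells. SERPINB13, a serpin of stratified epithelium, was 98.7, 88.2 and 96.2 CPM against 1.77, 1.96 and 1.96 CPM. S100A9, a calcium-binding protein of stressed keratinocytes, was 55.2, 50.6 and 56.9 CPM against 1.92, 1.99 and 1.59 CPM, and its partner S100A8 was 12.9 against 0.688 CPM. IVL (involucrin) averaged 1.03 CPM in CAL27 cells and had at most 2 counts in an HSC3 library. The 9 genes higher in HSC3 cells included SERPINB2, the lipoxygenase ALOXE3 (3.87 against 40.2 CPM), the protease inhibitor CSTA (48.7 against 132) and sciellin (SCEL, 10.96 against 33.7). Several well known members were low in both lines and not called, such as TGM1 (3.03 and 2.33 CPM) and SPRR1B (3.76 and 2.28 CPM).

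Among cell-cell junctions, few desmosome genes differed and many tight junction genes did. Of 13 desmosome genes tested, PKP2 alone was called, at 70.9 CPM in CAL27 cells and 192 CPM in HSC3 cells. When HSC3 replicate 2 or HSC3 replicate 3 was left out, 2 desmosome genes were higher in HSC3 cells. DSP (desmoplakin) was 1236 and 1355 CPM, and DSG3 (desmoglein) was 161 and 149 CPM. Of 19 tight junction genes tested, 10 were higher in CAL27 cells, against 2 in HSC3 cells, namely CLDN7 (7.75 against 19.8 CPM) and the polarity gene PARD3 (26.8 against 88.99 CPM). Of the 15 with at least 1 CPM in both lines, 6 were higher in CAL27 cells and 2 in HSC3 cells. CLDN1 was 4053, 3769 and 4041 CPM in CAL27 cells and 558, 522 and 624 CPM in HSC3 cells, 6.96-fold higher in CAL27 cells. CLDN4 was 24.6, 23.6 and 24.4 CPM against 4.69, 3.95 and 3.74 CPM, and TJP3, a scaffold of the junction, was 7.79 against 0.273 CPM. E-cadherin (CDH1) was 293, 293 and 295 CPM in CAL27 cells and 168, 176 and 173 CPM in HSC3 cells, a 1.7-fold difference that did not reach the fold threshold although the libraries did not overlap. EPCAM, an epithelial adhesion molecule, was 125 against 56.2 CPM and was higher in CAL27 cells. Gap junction genes were split. Of 6 tested, 4 were higher in HSC3 cells, among them GJB2, at 46.2, 43.8 and 45.02 CPM in CAL27 cells and 138, 142 and 152 CPM in HSC3 cells. The connexin GJA1 was higher in CAL27 cells, at 33.4, 31.6 and 29.8 against 3.69, 2.82 and 3.3 CPM.

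Genes that anchor cells to the matrix were more often higher in HSC3 cells. Of 38 integrin, laminin and hemidesmosome genes tested, 15 were higher in HSC3 cells and 7 in CAL27 cells, with a median of 1.37 over 25 members. Over the alternatives that tested these genes without the limit of 1 CPM in both lines, these counts ran from 13 to 16 and from 6 to 9. ITGB1, the beta chain shared by most matrix-binding integrins, was 264, 267 and 263 CPM in CAL27 cells and 1724, 1734 and 1797 CPM in HSC3 cells (6.61-fold, adjusted p = 9.07e-15). ITGB4, the beta chain of hemidesmosomes, was 711, 687 and 649 CPM against 2477, 2433 and 2159 CPM. LAMA3, which encodes a laminin chain of the epithelial basement membrane, was 129, 130.1 and 122 CPM in CAL27 cells and 1208, 1177 and 1204 CPM in HSC3 cells, 9.42-fold higher in HSC3 cells. ITGA6, the partner of ITGB4, was 640.0 against 1105 CPM and was not called. The integrin chains higher in CAL27 cells included ITGB8 (420.0, 405 and 433 against 97.6, 102 and 105 CPM) and ITGB6 (57.2, 52.3 and 57.01 against 10.8, 10.4 and 9.34 CPM), both of which activate latent TGF-beta. ITGA4, better known from leukocytes, was 23.8 CPM in CAL27 cells and 0.339 CPM in HSC3 cells.

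**Figure D2:**
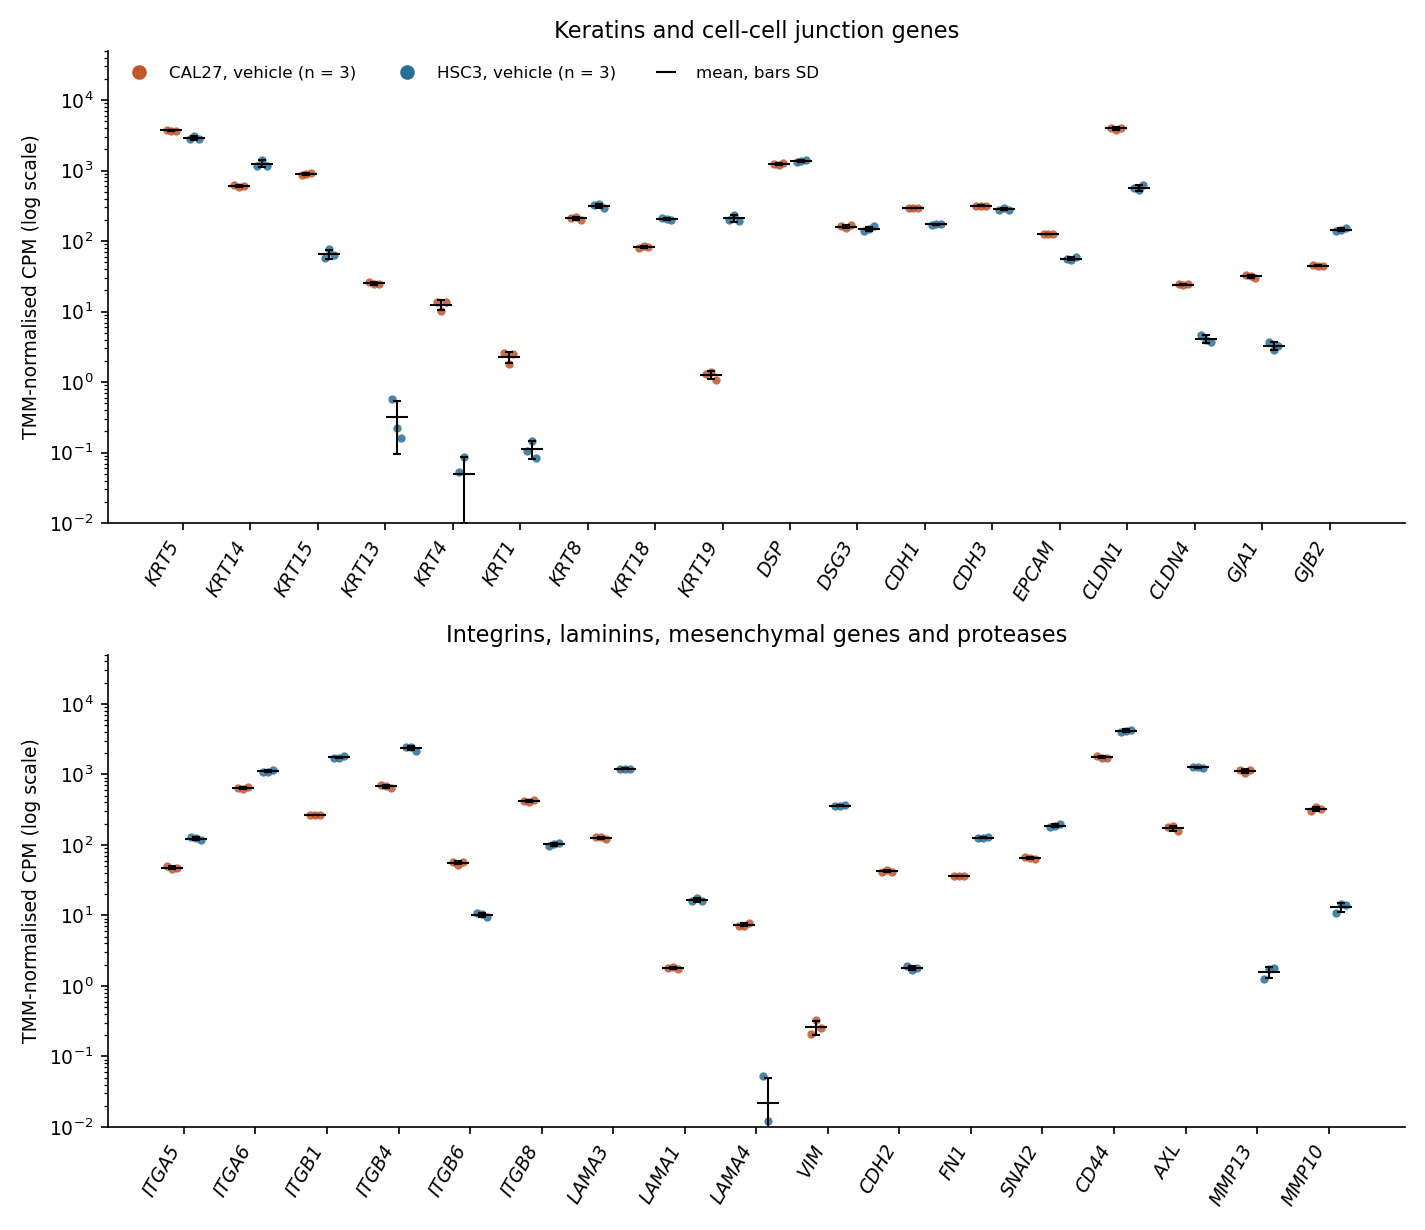
Keratin and cell-cell junction genes (top) and integrin, laminin, mesenchymal and protease genes (bottom) in vehicle-treated CAL27 (orange) and HSC3 (blue) cells, as TMM-normalised CPM on a log axis; points are libraries and bars are the mean and SD (n = 3). A library at 0 is not drawn. DSP, DSG3 and CDH3 lie at like heights in both lines, KRT13 and KRT4 are far lower and VIM and KRT19 far higher in HSC3 cells, and ITGB1 and LAMA3 are higher in HSC3 cells.

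Mesenchymal genes were split between the lines and did not move as a block. Of 47 tested, 18 were higher in HSC3 cells and 12 in CAL27 cells, with a median of 0.57 over 32 members. HSC3 cells had more VIM, as described above. NT5E, the surface nucleotidase CD73, was 83.5, 78.1 and 73.97 CPM in CAL27 cells and 1331, 1341 and 1418 CPM in HSC3 cells. FN1 (fibronectin) was 35.8, 36.2 and 36.4 CPM against 125, 126 and 128 CPM, and SNAI2, a transcription factor of epithelial-mesenchymal transition (EMT) that basal keratinocytes also use, was 67.5, 64.2 and 63.8 CPM against 181, 183 and 199 CPM. EMP3 (2.12 against 42.6 CPM) followed the same direction. CAL27 cells had more N-cadherin (CDH2, 41.9, 44 and 41.5 against 1.91, 1.69 and 1.81 CPM), MYL9 (16.8 against 0.377 CPM), NCAM1 (5.54 against 0.216 CPM) and FBLN1 (67.8 against 10.6 CPM). Thus VIM and CDH2, both used as mesenchymal markers, differed in opposite directions. ZEB1, an EMT factor, was low in both lines (0.664 and 0.939 CPM) and was not called, nor was SPARC (477 and 398 CPM).

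The lines also used different matrix-degrading proteases. Of 17 matrix metalloproteinase genes tested, 7 were higher in CAL27 cells, against 6 in HSC3 cells. Beside MMP13, CAL27 cells had more of the stromelysin MMP10 (304, 339.8 and 324 against 10.7, 14.4 and 13.9 CPM), of MMP12 (18.3 against 0.441 CPM) and of MMP16 (10.3 against 0.137 CPM). MMP1 was 469.8 against 230.3 CPM, a call that was lost when CAL27 replicate 3 or HSC3 replicate 3 was left out (log2 fold changes of -0.99 in both cases). The gelatinases were higher in HSC3 cells. MMP2 was 2.78 against 16.4 CPM, and MMP9 had no count in CAL27 cells and 2.54, 2.56 and 2.71 CPM in HSC3 cells, at least 104-fold higher against the floor. Of 15 genes of the plasminogen system and of related proteases and inhibitors, 8 were higher in HSC3 cells and 4 in CAL27 cells. PLAU (urokinase) was 237, 231 and 248 CPM in CAL27 cells and 1007, 958 and 1017 CPM in HSC3 cells, and so was higher in HSC3 cells, as was its inhibitor SERPINB2. ADAMTS1 (3.79 against 51.5 CPM) and ADAM8 (6.33 against 56.6 CPM) were higher in HSC3 cells too.

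Most type I ISGs were higher in CAL27 cells. Of 73 genes, all of which were tested, 47 were higher in CAL27 cells, DDX60L was higher in HSC3 cells, and 25 were not called. The median was -1.48 over 66 members, against 0.10 over all genes at that level. Without the limit of 1 CPM, the alternatives gave from 46 to 53 genes higher in CAL27 cells. Some of the best known ISGs carry in their promoters the interferon-stimulated response element, whose core repeats the letters GAAA. The following windows of 40 bases from promoters of ISGs that were higher in CAL27 cells show this pair of repeats, with the match to GAAA, any 2 bases and GAAA in capitals, or to TTTC, any 2 bases and TTTC where the match lies on the other strand.
ISG15 (chr1:1013375-1013414, plus strand): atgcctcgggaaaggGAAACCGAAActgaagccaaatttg
IFIT1 (chr10:89392505-89392544, plus strand): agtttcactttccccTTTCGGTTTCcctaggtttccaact
IFI27 (chr14:94110613-94110652, plus strand): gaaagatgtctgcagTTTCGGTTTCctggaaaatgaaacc
IFI44L (chr1:78620360-78620399, plus strand): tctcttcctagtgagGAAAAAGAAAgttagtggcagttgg
MX1 (chr21:41431839-41431878, plus strand): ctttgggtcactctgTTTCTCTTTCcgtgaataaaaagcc
Where a promoter held more than 1 match, some overlapping, a single one is shown. These sequences are from RefSeq (GRCh38.p14) and lie within 250 bases before an annotated start. Among type I ISGs with a promoter sequence, a gene was counted when any of its promoters held this pair of repeats on either strand. That was so for 22 of 37 genes (59.5%) higher in CAL27 cells and for 10 of 20 genes (50%) not called. The pair was present in 2.53% of 18513 promoters of genes tested and in 3.02% of all 35116 promoters, each over the same 250 bases. These last shares count promoters and not genes. A gene with several promoters has more chances of a match, so the measures are not alike. The lists thus shared the motif whether or not a member differed between the lines. A match of letters is not a site that was shown to be bound.

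The genes whose sequences are shown were at the following levels. ISG15, a ubiquitin-like modifier, was 67.9, 57.8 and 58.8 CPM in CAL27 cells and 11.5, 7.35 and 7.21 CPM in HSC3 cells. MX1, a GTPase that blocks viral replication, was 387, 353 and 391 CPM against 36.8, 27.5 and 27.3 CPM. IFIT1, which binds viral RNA, was 156, 146 and 159.6 CPM against 20.7, 16.5 and 13.7 CPM. None of these groups overlapped, and the ratios of means were 7.08, 12.3 and 9.06. IFI44L was 97.4 against 14.97 CPM, IFI27 was 103 against 33.02 CPM and the RNA-activated synthetase OAS1 was 116 against 19.98 CPM. The largest differences were in RSAD2 (viperin, 50.4, 48.1 and 50.3 against 0.507, 0.172 and 0.355 CPM), BST2 (tetherin, 64.1, 61.1 and 72.3 against 1.49, 1.45 and 1.37 CPM), the deaminase APOBEC3G (36.8 against 0.907 CPM) and CMPK2 (27.8 against 0.943 CPM). HSC3 cells were not without the program, with MX1, IFIT1 and IFI44L well above the floor in each HSC3 library. DDX60L, the exception, was 28.5, 25.2 and 28.7 CPM in CAL27 cells and 97.3, 97.01 and 97.3 CPM in HSC3 cells.

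**Figure D3:**
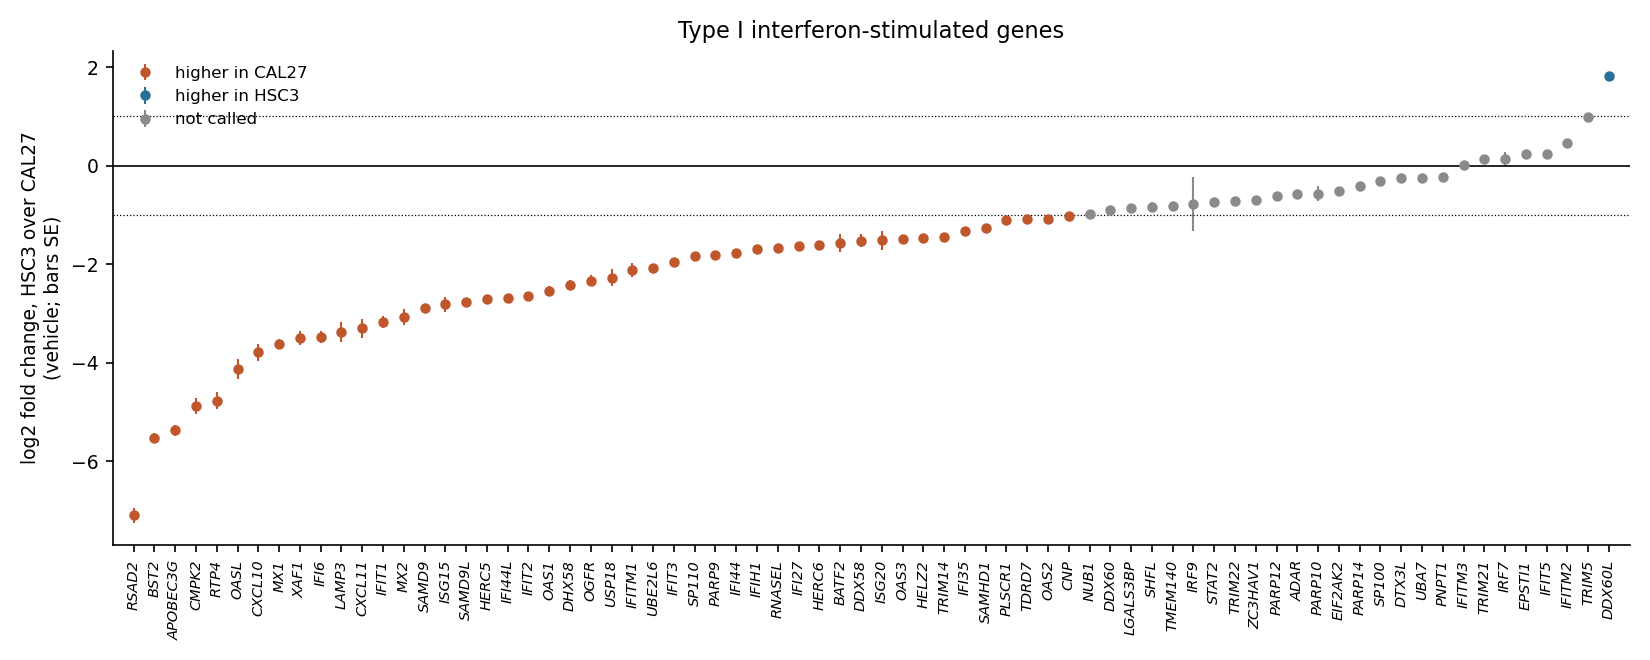
Log2 fold change, HSC3 over CAL27 cells with vehicle, for 72 of the 73 type I ISGs in order of size; bars are SE from edgeR, orange marks genes called higher in CAL27, blue higher in HSC3 and grey not called, and dotted lines mark a 2-fold difference. Of the 72 genes, 46 lie below the lower line and are called, and DDX60L alone is called above the upper line.

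Upstream of the ISGs, 5 of 13 RNA and DNA sensing genes and 3 of 10 STAT and IRF factors tested were higher in CAL27 cells, and none of either was higher in HSC3 cells. Without the limit of 1 CPM, the alternatives gave from 3 to 5 STAT and IRF factors higher in CAL27 cells. IFNAR1, a chain of the type I receptor, was 131 and 148 CPM, IFNGR1, of the type II receptor, was 82.2 and 76.5 CPM, and JAK1 was 225 and 399 CPM. None of these was called. Of 13 receptors, kinases and feedback genes, JAK2 was higher in HSC3 cells and SOCS1 and USP18 in CAL27 cells. JAK2 was at 16.1, 15.5 and 14.3 CPM in CAL27 and 53.4, 46.9 and 48.9 CPM in HSC3 cells. IRF1 was 57.1, 58.3 and 60.8 CPM against 22.6, 19.8 and 18.9 CPM, and IRF5 was 8.94 against 1.57 CPM. STAT2 was 233 against 139.7 CPM and was not called, although its libraries did not overlap. Of the cytosolic RNA sensors, IFIH1 (MDA5) was 95.7, 88.9 and 100.1 CPM against 29.8, 31.04 and 27.4 CPM and DHX58 (LGP2) was 16.7 against 3.14 CPM. RIGI, listed under its older symbol DDX58, was 4.78 against 1.66 CPM, but 87.7% of its exon length lies under another gene on the same strand, so its count is uncertain. The same holds for 43.9% of IRF9, which was 0.208 and 0.121 CPM and not called. USP18, which limits the response, was 15.9 against 3.3 CPM.

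The interferon genes themselves were low, and IFNE was the most abundant of them in both lines. Of 9 ligand genes, 4 passed the filter, of which IFNA1, IFNE and IFNK were higher in HSC3 cells and IFNL1 in CAL27 cells. IFNE, the interferon of epithelia, was 0.619, 0.754 and 0.832 CPM in CAL27 cells and 4.81, 4.45 and 5.02 CPM in HSC3 cells. IFNA1 was 0.0291, 0 and 0.025 CPM against 0.586, 0.331 and 0.304 CPM, and 63.4% of its exon length lies opposite another gene. Among these 4 ligand genes, IFNK alone had libraries that overlapped between the lines. Over the 40 components tested, 11 were higher in CAL27 cells, against 4 in HSC3 cells (10 and 2 with counts divided by counts per molecule).

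Genes of the interferon-gamma response and of antigen presentation followed the type I genes, with a few exceptions. Of 57 tested, 40 were higher in CAL27 cells, against 7 in HSC3 cells (4 with library totals), and the median was -1.27 over 41 members. Some members, such as CXCL10 and IRF1, also stand in other interferon or chemokine lists, so the lists are not independent. Each of the 10 MHC class II genes tested was higher in CAL27 cells, among them CIITA, the transactivator of the class (18.3, 17.02 and 20.3 against 3.88, 5.09 and 4.9 CPM), and the invariant chain CD74 (186, 181 and 177 against 84.8, 89.4 and 83.9 CPM). Only 2 of these 10 had at least 1 CPM in both lines. The GTPases GBP1 (86.6, 84.2 and 91.6 against 18.5, 17.97 and 16.04 CPM), GBP2 (47.7 against 1.23 CPM) and GBP4 (100.2 against 3.34 CPM) were higher in CAL27 cells. APOL1, an apolipoprotein induced by interferon-gamma, was 178 against 6.57 CPM. IDO1, which degrades tryptophan, was 4.69, 5.01 and 4.72 CPM in CAL27 cells and 0.035, 0.0736 and 0 CPM in HSC3 cells. B2M, the light chain of class I, was 654 against 272 CPM, while the peptide transporter gene TAP1 was 58.6 against 38.1 CPM and was not called.

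The exceptions included immune checkpoint ligands. CD274 (PD-L1) was 9.8, 8.75 and 9.45 CPM in CAL27 cells and 82.2, 74.2 and 79.99 CPM in HSC3 cells, 8.44-fold higher in HSC3 cells (log2 fold change 3.08 ± 0.063, adjusted p = 2.68e-13). PDCD1LG2 (PD-L2) was 1.16, 1.09 and 1.46 CPM against 55.5, 52.03 and 55.1 CPM. WARS1, a tRNA synthetase that interferon-gamma induces, was 240.3, 233 and 226 CPM against 536, 506 and 529 CPM, though its fold change was below the threshold with library totals (0.89) and upper-quartile factors (0.98). The peptidase ERAP1 was 90.1 against 224 CPM, and FAS, chosen here after its values were seen, was 25.97 against 59.4 CPM. HLA-B (58.4 against 119.7 CPM) was higher in HSC3 cells and HLA-C (216 against 8.01 CPM) in CAL27 cells. The HLA genes share reads and vary in sequence between people, so that these class I counts are uncertain.

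**Figure D4:**
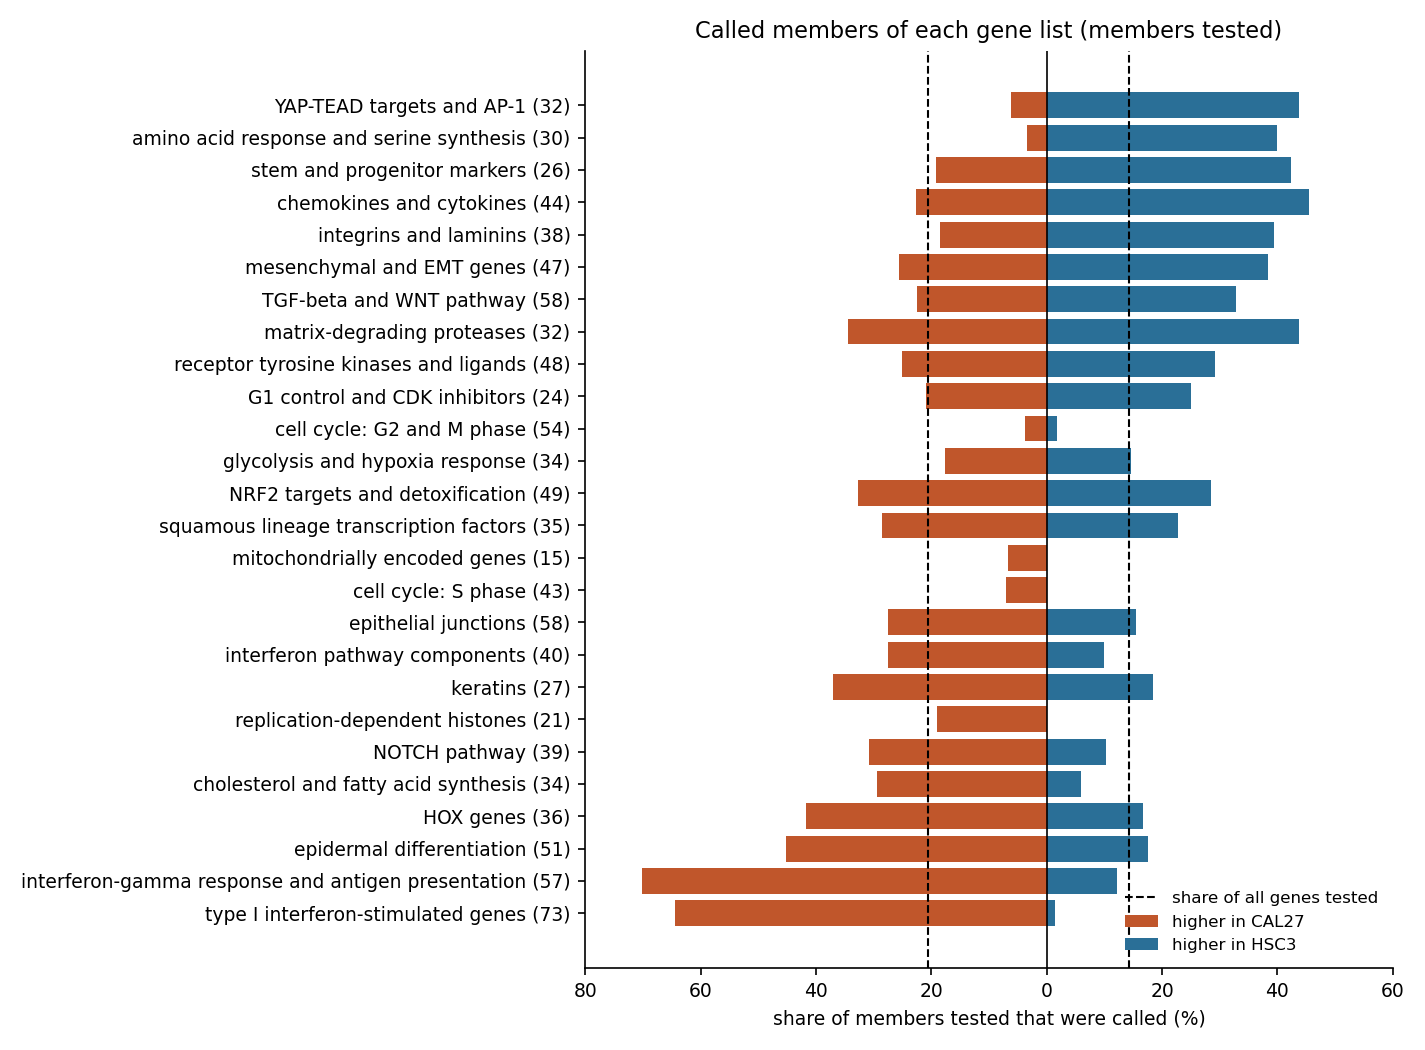
Share of the members tested in each gene list that were called, to the left higher in CAL27 cells (orange) and to the right higher in HSC3 cells (blue), with the number of members tested in brackets; lists with fewer than 15 members tested, the genes assayed by name and the markers of other cell types are left out. Dashed lines mark the shares over all genes tested, 20.5% and 14.2%. The type I ISG and interferon-gamma lists extend farthest to the left, and the S phase and the G2 and M phase lists stay inside both dashed lines.

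Among interleukin and growth cytokine genes, 15 of 27 tested were higher in HSC3 cells and 3 in CAL27 cells. IL1A was 15.99, 15.2 and 16.6 CPM in CAL27 cells and 484, 518 and 555 CPM in HSC3 cells, and IL1B was 22.6, 21.6 and 22.7 CPM against 313, 330.1 and 324 CPM, ratios of 32.6 and 14.5. IL1R1, the signalling receptor of both cytokines, was lower in HSC3 cells, at 9.6, 10.9 and 12.5 CPM against 112, 116 and 107 CPM in CAL27 cells. IL24, a cytokine of the IL-10 family of which 41.6% of the exon length lies opposite another gene, was 0.0802, 0.112 and 0.0749 CPM against 86.1, 73.1 and 65.4 CPM. Of 17 CXC and CC chemokine genes tested, 5 were higher in HSC3 cells and 7 in CAL27 cells. The neutrophil chemokines CXCL2 (2.27 against 49.3 CPM) and CXCL8 (42.4, 35.1 and 41.8 against 204, 191 and 194 CPM) were higher in HSC3 cells. CXCL1 was 31.5 against 67.5 CPM, a call that was lost with library totals (0.82), with upper-quartile factors (0.92) and over genes with at least 1 CPM in both lines (0.98). CX3CL1, a membrane-bound chemokine, was 88.8, 88.9 and 86.9 CPM in CAL27 cells and 0.0175, 0.0491 and 0.101 CPM in HSC3 cells, the last resting on a few counts. TNFSF10 (TRAIL), which interferon also induces, was 381, 376 and 418 CPM against 27.9, 28.3 and 25.2 CPM. IL6 was low in both lines (2.67 and 2.09 CPM) and was not called.

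The receptor EGFR was abundant in both lines, at 3407, 3479 and 3488 CPM in CAL27 cells and 6002, 5670.1 and 6102 CPM in HSC3 cells, and was not called. ERBB2 (68.8 and 75.7 CPM) and MET (631 and 944 CPM) were not called either. Of 10 genes for ERBB ligands, 6 were higher in HSC3 cells and 3 in CAL27 cells. AREG (amphiregulin) was 8.97, 8.49 and 9.6 CPM in CAL27 cells and 789.9, 807 and 833 CPM in HSC3 cells. EREG (epiregulin) was 36.9, 32.7 and 33.7 CPM against 645, 599 and 734 CPM, and HBEGF was 6.13, 5.77 and 4.93 CPM against 231, 261 and 258 CPM. The ratios of means were 89.8, 19.1 and 44.6. EGF itself was higher in CAL27 cells but low (3.2 against 0.0976 CPM). Of 34 other receptor and ligand genes tested, 8 were higher in each line. Those higher in CAL27 cells included the neurotrophin receptor NTRK2 (62.1, 58.7 and 59.3 against 0.035, 0.295 and 0.0677 CPM), FGFR3 (42.1 against 5.93 CPM) and FGFR4 (8.16 against 0.0752 CPM). Those higher in HSC3 cells included AXL, described below, and VEGFC, a growth factor for lymphatic vessels, which was 14.2 CPM in CAL27 cells and 162 CPM in HSC3 cells.

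NOTCH1, NOTCH3 and many targets of the pathway were lower in HSC3 cells while most ligands were not called. NOTCH3 (chr19:15159038-15200995) was 194, 176 and 186 CPM in CAL27 cells and 0.857, 1.5 and 1.29 CPM in HSC3 cells, a ratio of 153. NOTCH1 was 210.4, 197 and 204 CPM against 18.6, 16.3 and 15.3 CPM, and NOTCH2, given here to complete the receptors, was 182 and 209.9 CPM and was not called. Of 17 targets and effectors tested, 10 were higher in CAL27 cells, against 2 in HSC3 cells. Of the 12 with at least 1 CPM in both lines, 5 were higher in CAL27 cells and 2 in HSC3 cells. NRARP, a direct target that limits NOTCH signalling, was 89.4, 79.6 and 91.3 CPM against 5.98, 6.06 and 6.11 CPM, and HES2 was 28.2 against 6.92 CPM. HES1 (30.9 and 24.3 CPM) and HEY1 (3.79 and 5.42 CPM) were not called. Of 6 ligand genes tested, DLL4 alone was called, at 0.0636 CPM in CAL27 cells, near the floor, and 0.392 CPM in HSC3 cells. Without the limit of 1 CPM, the alternatives gave from 0 to 2 ligand genes higher in HSC3 cells. JAG1 was 333, 322 and 340.3 CPM in CAL27 cells and 345, 346 and 352 CPM in HSC3 cells, and was not called (log2 fold change 0.07 ± 0.036, adjusted p = 0.108). RBPJ, the DNA-binding partner of NOTCH, was higher in HSC3 cells, at 74.1 against 253 CPM. The pathway as a whole had 12 of 39 genes higher in CAL27 cells, against 4 in HSC3 cells.

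AP-1 factors and targets of YAP and TEAD were more often higher in HSC3 cells, and the TGF-beta pathway was called in both directions. YAP and TEAD respond to matrix and cytoskeletal tension, and AP-1 acts with them at many enhancers. Of 32 such genes tested, 14 were higher in HSC3 cells, and ANKRD1 (1.42 against 0.583 CPM) and TGFB2 (70.5 against 15.03 CPM) were higher in CAL27 cells. The median was 0.62 over 29 members. FOSL1, an AP-1 subunit of invasive cells, was 48.1, 45.8 and 39.6 CPM in CAL27 cells and 710.1, 735 and 767 CPM in HSC3 cells. JUN was 6.47, 7.75 and 6.42 CPM against 62.5, 66.7 and 56.9 CPM, and the matricellular targets CCN1 and CCN2 were 40.6 against 233 CPM and 4.83 against 35.3 CPM. The receptor kinase AXL was 179.7, 183 and 158 CPM against 1279.6, 1274 and 1238 CPM. In the TGF-beta and WNT list, 19 of 58 genes were higher in HSC3 cells and 13 in CAL27 cells, and of its 26 TGF-beta pathway genes 11 and 8. TGFB1 (14.4 against 84.03 CPM), its receptor TGFBR2 (77.2, 73.7 and 72.1 against 323, 318 and 331 CPM) and LTBP2 (12.5 against 248 CPM) were higher in HSC3 cells. BMP7 (38.1, 36.8 and 36.7 against 0.262, 0.368 and 0.22 CPM) and the BMP targets ID1 (67.1 against 11.1 CPM) and ID3 (14.04 against 0.698 CPM) were higher in CAL27 cells. Of the WNT ligands, WNT7A was higher in HSC3 cells (11.6 against 88.6 CPM) and WNT5A in CAL27 cells (17.9 against 2.4 CPM).

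Among cell cycle genes, few of S, G2 and M phase were called with TMM factors. Of 24 G1 genes, 6 were higher in HSC3 cells and 5 in CAL27 cells. Beside CCND2, CCND1 was 311, 305 and 280.2 CPM in CAL27 cells and 1149, 1183 and 1233 CPM in HSC3 cells, and MYC was 112, 109 and 108 CPM against 329.8, 348 and 321 CPM. CCND3 (19.96 against 4.59 CPM) and CCNE1 (8.06 against 1.64 CPM) were higher in CAL27 cells. CDKN1A (p21), an inhibitor of cyclin-dependent kinases, was 18.8, 17.6 and 18.7 CPM against 145, 149 and 147 CPM and was higher in HSC3 cells. Of 43 S phase genes, GINS2, MCM5 and TYMS were higher in CAL27 cells and none in HSC3 cells. Of 54 genes of G2 and M phase, GTSE1 and NUSAP1 were higher in CAL27 cells and CBX5 in HSC3 cells. These counts depended on the scaling, and those higher in CAL27 cells were 8 S phase genes and 6 of G2 and M phase with upper-quartile factors, 9 and 8 with library totals, and 5 and 4 over genes with at least 1 CPM in both lines. MCM5 and NUSAP1 lost their calls when single libraries were left out (MCM5 without HSC3 replicate 3, at -0.99, and NUSAP1 without any of 4 libraries, at log2 fold changes of -0.96 to -1.33 against -1.26 with all), and 66.5% of TYMS exon length lies opposite another gene. NUSAP1 is uncertain besides, since 98.3% of its exon length lies under another gene on the same strand. The proliferation marker MKI67 was 1575, 1602 and 1575 CPM against 1000.1, 1011 and 1034 CPM and was not called.

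HMGA2, an architectural protein of embryonic and cancer cells, was 81.04, 80.04 and 79.5 CPM in CAL27 cells and 2344, 2425 and 2461 CPM in HSC3 cells, a ratio of 30.05. HMGA1 was 837 against 2934 CPM, and IGF2BP1, an RNA-binding protein of foetal tissue, was 35.4 against 148 CPM. The transporter ABCG2 was 7.4 against 69.5 CPM. CD44, the hyaluronan receptor, was 1813, 1731 and 1722 CPM against 4009, 4179 and 4327 CPM, below the fold threshold with library totals (0.98). Of 26 stem and progenitor markers tested, 11 were higher in HSC3 cells and 5 in CAL27 cells (SOX2, ALDH1A1, EPCAM, KIT and PROM1). PROM1 averaged 0.116 CPM in CAL27 cells and had no count in HSC3 cells.

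Metabolic lists differed too, and for them the medium, which supplies amino acids and glucose at levels of its own, stands beside the cell line as a difference between the groups. The part of the medium was not tested. Of 30 genes of the ATF4 amino acid response and of serine synthesis, 12 were higher in HSC3 cells, NUPR1 was higher in CAL27 cells (2.99 against 0.0824 CPM), and the median was 0.94 over 29 members. TRIB3, a pseudokinase induced by ATF4, was 33.6, 32.3 and 29.4 CPM in CAL27 cells and 328, 297 and 337 CPM in HSC3 cells. SLC7A11, the cystine transporter, was 91.1, 84.1 and 86.4 CPM against 448, 470.4 and 575 CPM. STC2 (37.9 against 135 CPM) and CEBPG (47.8 against 181 CPM) were higher in HSC3 cells too, and PHGDH, the first enzyme of serine synthesis, was 90.9 against 181 CPM and was not called. Of 34 genes of cholesterol and fatty acid synthesis, 10 were higher in CAL27 cells, with ELOVL6 and MSMO1 (below the fold threshold with library totals, 0.91) higher in HSC3 cells and a median of -0.51 over 33 members. FASN (fatty acid synthase) was 455, 449 and 451 CPM against 154, 154 and 132 CPM.

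NRF2 targets and detoxifying enzymes were divided by class. Of 32 NRF2 pathway genes, 10 were higher in HSC3 cells and 5 in CAL27 cells. Without the limit of 1 CPM, the alternatives gave 10 in HSC3 cells and from 5 to 9 in CAL27 cells, so this split depended on the processing. FTL (ferritin light chain) was 530.3 against 3007 CPM and NQO1 was 97.1, 95.3 and 92.6 against 309, 309.8 and 276 CPM. Of 17 aldehyde, glutathione and cytochrome enzymes, 11 were higher in CAL27 cells, against 4 in HSC3 cells. Of the 8 with at least 1 CPM in both lines, 4 were higher in CAL27 cells and 2 in HSC3 cells. GSTM3 was 16.3 against 0.0533 CPM, ALDH3A1 was 9.89 against 0.144 CPM, and GSTM1 averaged 5.78 CPM in CAL27 cells with no count in HSC3 cells (at least 196-fold lower). GSTM1 is deleted in part of the population, and the copy number was not analysed here. In the glycolysis and hypoxia list, 6 of 34 genes were higher in CAL27 cells, against 5 in HSC3 cells. LDHA was 702 against 299.7 CPM, and the glucose transporter SLC2A3 was 0.125 against 10.2 CPM.

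Genes that differed were spread over the genome with some concentrated regions. By chromosome, the median log2 fold change was highest on chromosomes 4 (0.51 over 709 genes tested) and 10 (0.46 over 818) and lowest on chromosomes 7 (-0.59 over 966) and 16 (-0.58 over 789). Of 278 bins of 10 Mb with at least 20 genes tested, the lowest median was on chromosome 6 from 40 to 50 Mb (-1.56). There 65 of 92 genes, CCND3 among them, were higher in CAL27 cells, against 3 in HSC3 cells. The next was on chromosome 11 from 50 to 60 Mb (-1.30), where 25 of 43 genes were higher in CAL27 cells, against 2 in HSC3 cells. Over all genes tested in a bin, the highest medians were on chromosome 10 from 0 to 10 Mb (1.26, 31 of 51 genes higher in HSC3 cells) and from 10 to 20 Mb (1.22, 32 of 55). The second of these holds VIM, whose difference was far above the median of the bin. Over genes with at least 1 CPM in both lines the order was another, with chromosome 10 from 30 to 40 Mb (1.61 over 20 genes), chromosome 4 from 70 to 80 Mb (1.48 over 36) and chromosome 4 from 40 to 50 Mb (1.31 over 19) above chromosome 10 from 0 to 10 Mb (1.28 over 35). On chromosome 4 from 70 to 80 Mb, named here after its values were seen because AREG, EREG, CXCL8, CXCL1 and CXCL2 lie in it, 36 of 61 genes were higher in HSC3 cells and 10 in CAL27 cells. The median there was 1.17, and in bins of 5 Mb it was 2.20 over 24 genes from 70 to 75 Mb, where 20 were higher in HSC3 cells. The copy number of these regions was not analysed here, and its part was not tested.

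The line difference was measured a second time in the DOX libraries, which share no library with the vehicle comparison. The MUC1 shRNA was induced in both groups of that comparison. Of 19351 genes tested, 2666 (13.8%) were higher in HSC3 cells and 3284 (17%) in CAL27 cells. Of the 18706 genes tested in both comparisons, 2689 were higher in HSC3 cells with vehicle, and 2030 of these were higher with DOX too. Likewise 2452 of 3744 genes higher in CAL27 cells with vehicle were higher there with DOX, and 7 genes were called in opposite directions. HSC3 DOX replicate 1 stood apart from its group, with a chi-square per degree of freedom of 141 and 90.9 against the other libraries where they differed by 23.2 from each other. The HSC3 DOX libraries also had 17.3, 8.98 and 11.3 counts per molecule, more than those with vehicle. Without HSC3 DOX replicate 1 the counts were 2739 and 3891.

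Of all these genes, 75.5% of those higher in HSC3 cells with vehicle and 65.5% of those higher in CAL27 cells were thus called again with DOX. All but 1 of the 15 integrin and laminin genes higher in HSC3 cells with vehicle were so with DOX (93.3%), and 18 of the 20 chemokines and cytokines (90%). Of the 47 type I ISGs higher in CAL27 cells with vehicle, 30 were higher with DOX (63.8%), a share near that of all genes, and of the 40 interferon-gamma response genes 30 were (75%). Some lists had smaller shares. Of the 11 interferon pathway components higher in CAL27 cells, 4 were called again (36.4%), as were 2 of the 5 stem and progenitor markers higher there (40%; 3 without HSC3 DOX replicate 1) and 7 of the 14 NRF2 and detoxification genes higher in HSC3 cells (50%). In the NRF2 pathway, 10 genes higher in HSC3 and 5 in CAL27 cells with vehicle became 4 and 10 with DOX, and 6 type I ISGs were higher in HSC3 cells with DOX. Without HSC3 DOX replicate 1 the counts of type I ISGs and of interferon-gamma response genes called again were 29 and 31, and the adhesion and cytokine counts were as before. MX1 had a log2 fold change of -3.62 ± 0.10 with vehicle and -2.68 ± 0.11 with DOX, and ISG15 of -2.82 ± 0.15 and -1.34 ± 0.16. IFIT1 had -3.18 ± 0.12 and -3.25 ± 0.13. MUC1 itself was 2.94 ± 0.241 CPM in CAL27 cells and 0.235 ± 0.0914 CPM in HSC3 cells with DOX (SD, n = 3), a log2 fold change of -3.63 ± 0.33 against -4.99 ± 0.082 with vehicle. NOTCH3 kept its difference (-6.83 ± 0.24 with DOX, -7.28 ± 0.11 with vehicle). Of 43 S phase genes, 3 were higher in CAL27 cells with vehicle and 22 with DOX (21 without HSC3 DOX replicate 1).

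**Figure D5:**
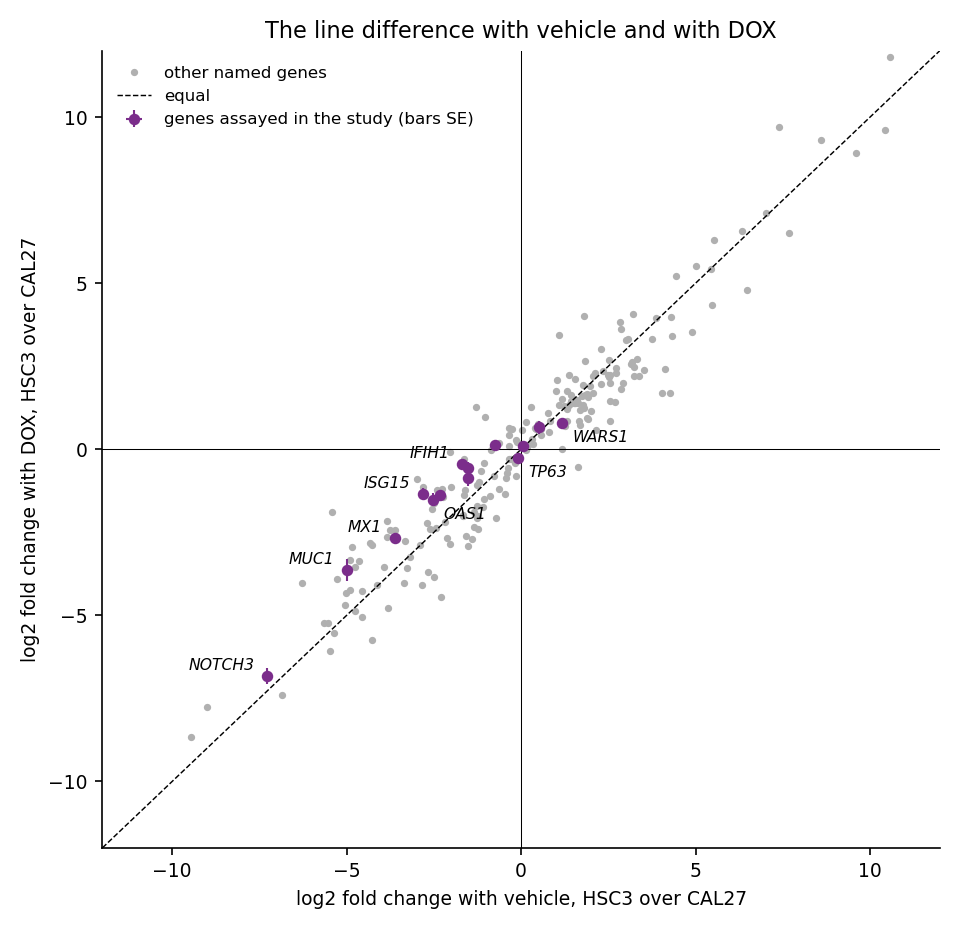
Log2 fold change, HSC3 over CAL27 cells, with vehicle (horizontal) and with DOX (vertical) for 219 named genes with at least 0.1 CPM in every group; purple marks the genes assayed by name in the study (14 of them, bars SE) and the dashed line marks equal values. Most genes lie near the dashed line, NOTCH3 close to it, and MUC1, MX1, ISG15 and IFIH1 lie nearer to 0 with DOX than with vehicle.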

How the data were processed

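RNA from replicate cultures was sequenced after a TruSeq Stranded mRNA preparation, and the tables deposited by the authors hold whole-number read counts per gene symbol, 1 table per cell line. The submitters' processing notes name FastQC 0.11.9, STAR 2.7.9a, featureCounts from Subread 2.0.1 and GRCh38. The strand setting and handling of duplicate reads are not given in the sources used here, and the annotation only as a release suffix that the study's methods add to the build. The table columns were joined by symbol, with 39368 symbols, of which 38934 matched the annotation used here directly, 376 by an older name and 58 not at all.

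Counts of the 6 vehicle libraries were fitted with edgeR 4.0.16 in R 4.3.3 (TMM, genes kept from 10 counts in enough libraries and 15 in all, robust quasi-likelihood, two-sided), and the 6 DOX libraries apart from them. A test of the difference between those comparisons used all 12. Tested on simulated data, the vehicle fit recovered 96.5% of 200 genes changed by 1.5 on the log2 scale and called 2 of the rest, and the DOX fit recovered 84% and called 12. The simulation changed as many genes up as down, among well counted genes, and drew counts without duplicated molecules. It therefore does not cover the unequal split of the calls, the choice of scaling or the counts per molecule of these libraries. SE is the fold change over the root of F. Errors after ± are SD over 3 libraries for levels and SE for fold changes.

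The members and the 30 gene lists were chosen with earlier results of these data known. The genes named were those the study assayed by name, the 10 with the largest difference of mean log2(CPM + 1) in each direction, and in each list the core genes and up to 4 called genes per direction. The 10 and the 4 were taken only from called genes whose libraries did not overlap between the lines. For genes named in this way, a lack of overlap is therefore not a result. PKP2, CLDN7, HLA-B, FAS, NOTCH2 and others that complete a count of 5 or fewer were chosen after their values were seen. Same-numbered vehicle libraries of the lines deviated together (correlations of 0.10, 0.13 and 0.20 over 9635 genes), which by a rule of 0.1 in every pair takes the numbers as pairing the cultures, though no label says so. No pair of libraries agreed within counting noise. DESeq2 1.42.0, other scalings, filters and thresholds, and leaving out each library were tried as alternatives. Values of some genes of the lists are not reported here.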

Additional observations from a re-analysis of the deposited data

Results flagged for a closer look

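The line difference changed between vehicle and DOX for 11 of the 19 genes assayed by name, by the interaction of cell line and treatment in edgeR's quasi-likelihood test over 12 libraries. The share of all genes that pass this test is not given here, so the count describes these genes only and is not read against a background. Each value is the log2 fold change, HSC3 over CAL27, with DOX minus that with vehicle. For MUC1 it was 1.36 ± 0.25 SE (adjusted p = 0.00101), with CAL27 cells at 55.7 CPM with vehicle and 2.94 ± 0.241 CPM with DOX and HSC3 cells at 1.77 and 0.235 ± 0.0914 CPM. Among interferon genes it was 1.23 for IFIH1, 0.857 for STAT2, 0.961 for IRF1, 1.01 for OAS1, 0.935 for MX1, 1.47 for ISG15 and 0.936 for GBP1, so that each lay nearer to equal levels with DOX. It was -0.386 for WARS1, -0.201 for TP63 and -2.14 for SOX2. When the counts of each library were first divided by its counts per molecule, 8 of the 11 still passed, and MUC1 (adjusted p = 0.0965), TP63 (0.0544) and SOX2 (0.062) did not, although their differences were of like size, at 1.31, -0.19 and -2.40. DOX itself, the shRNA and the greater counts per molecule of the HSC3 DOX libraries cannot be told apart here.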

How the results depend on the processing

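Of 266 named genes that were fitted, 243 kept their direction and their side of an adjusted p of 0.05 under every alternative run. By the full rule, with the 2-fold threshold, 15 of 234 called named genes lost the call in at least 1 of 15 alternatives, and 6 of 45 others gained one (CDH1, COL1A1, DLL3, MCM2, PHGDH and STAT2). This tally does not cover every gene named in the text, since a further HOXB gene lost its call with library totals. The median over genes with at least 1 CPM in both lines moved by -0.18 with upper-quartile factors and by -0.27 with library totals. Log2 fold changes smaller than this, such as 0.13 for DSP and 0.07 for JAG1 with TMM factors, reverse under such a shift. Another 6 genes, whose direction reversed, were never called, and no cause beyond this shift was tested. These were CDKN2A (-0.064 with library totals), DSP (-0.048 with upper-quartile factors, -0.14 with library totals), ERBB2 (-0.044 and -0.14), IFNAR1 (-0.0071 and -0.099), JAG1 (-0.11 and -0.20, and -0.053 over genes with at least 1 CPM in both lines) and MT-CO1 (-0.15, -0.24 and -0.090 under the same settings, -0.012 with counts divided by counts per molecule, -0.066 without CAL27 replicate 3, -0.021 without HSC3 replicate 2, and a range of -0.066 to 0.087 without single libraries). The vehicle counts of genes higher in HSC3 and in CAL27 cells fell to 1511 and 1546 over genes with at least 1 CPM in both lines, where fewer genes were tested. A fold threshold of 4 gave 1017 and 2232, and 1.5 gave 4484 higher in HSC3 cells. With DOX, a threshold of 4 gave 949 and 1750, 1.5 gave 4251 higher in HSC3 cells, and a test against the 2-fold threshold itself gave 2140 higher in CAL27 cells. Leaving out 1 library at a time gave 2672 to 2850 and 3742 to 4381 with vehicle, and 2505 to 2739 and 2886 to 3891 with DOX. DESeq2 gave 2739 and 3996 with vehicle. With the replicate number as a block, taking the numbers as a pairing, the counts were 2649 and 3866, and the block changed no call of a named gene. The share of calls that were higher in HSC3 cells was 40.9%, and 32.1% with upper-quartile factors and 27.7% with library totals. The highest median of a genome bin was 2.20 in bins of 5 Mb. For low genes, 3 counts are 0.0219 to 0.0368 TMM-normalised CPM in the vehicle libraries, a floor that covers counting error only. Low genes are also limited by the counts per molecule, estimated at 2.42 to 7.45 in these libraries.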

Other observations

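Genes that mark the position of a cell along the body axis differed between the lines. Of 36 HOX genes tested, 15 were higher in CAL27 cells and 6 in HSC3 cells (3 with library totals). Of the 23 with at least 1 CPM in both lines, 7 were higher in CAL27 cells and 5 in HSC3 cells. HOXC10 was 10.97, 12.03 and 12.3 CPM in CAL27 cells and 0.761, 1.36 and 0.499 CPM in HSC3 cells, HOXB7 was 8.27 against 0.794 CPM, and HOXB13 averaged 4.33 CPM in CAL27 cells with no count in HSC3 cells. HOXB9 went the other way, at 2.6, 2.52 and 2.82 CPM against 15.99, 18.7 and 17.4 CPM. The HOXB cluster was therefore divided within itself, with HOXB2, HOXB3, HOXB5, HOXB6 and HOXB9 higher in HSC3 cells and HOXB7 and HOXB13 higher in CAL27 cells. With library totals 2 HOXB genes were higher in HSC3 cells, and HOXB3 and HOXB6 were among those that lost their calls (0.94 and 0.96). Over the alternatives without the limit of 1 CPM, that count ran from 2 to 6. It was 4 when CAL27 replicate 1, CAL27 replicate 3 or HSC3 replicate 2 was left out. Cancer-testis genes, normally kept silent outside the germ line, were found in both lines, more of them in CAL27 cells. MAGEA4, the most abundant in both, was 80.2, 73.5 and 76.6 CPM in CAL27 cells and 50.6, 48.96 and 49.3 CPM in HSC3 cells and was not called. Of 44 such genes 7 passed the filter, and MAGEA2, MAGEA3, MAGEA6, MAGEA12 and PRAME were higher in CAL27 cells. Of these 7, MAGEA4 alone had at least 1 CPM in both lines. MAGEA3 was 42.5, 43.01 and 39.8 CPM in CAL27 cells with no count in HSC3 cells, but MAGEA genes are near-identical and may share reads. Of 21 replication-dependent histone genes, H1-3, H2AC4, H4C3 and H4C8 were higher in CAL27 cells, and H4C8 lost its call without HSC3 replicate 1 (-0.95). These transcripts mostly lack a poly(A) tail, on which the library preparation selects.

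Some genes had no count in any library of a line although they averaged at least 10 CPM in the other line. In CAL27 cells 8 such genes were found, namely CADM1, LINC00667, ZNF260, ZNF808, TBX18, SLC20A2, SMIM19 and EDA2R, and SLC20A2 and SMIM19 are neighbours. In HSC3 cells there were 9, namely PLXDC2, SLC1A2, SLC1A2-AS1, OLFM4, ENPP5, ADAM28, CLCN5, GPC4 and MAGEA3. CADM1, a cell adhesion molecule, averaged 27.8 ± 2.12 CPM (SD, n = 3) in HSC3 cells, and ZNF260 averaged 29.1 ± 0.957 CPM. ZNF260 stands in a run of 5 zinc finger genes (ZNF566, ZNF260, ZNF529, ZNF461 and ZNF567) low in CAL27 cells at chr19:36445119-36727701 (GRCh38). SLC1A2, a glutamate transporter, averaged 51.2 ± 2.12 CPM in CAL27 cells, and its neighbour CD44 was expressed in both lines. CLCN5 stands in a run of 4 genes (USP27X, CLCN5, SHROOM4 and NUDT11) low in HSC3 cells at chrX:49879484-51496592. The DNA of these regions was not analysed here.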
